A study of Caenorhabditis elegans with 2 samples.

Results

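The genes described here are the small nucleolar RNA (snoRNA) genes that lie inside protein-coding genes of Caenorhabditis elegans, read against the binding map of LIN-26::GFP in whole young adults. They were chosen from the Ensembl WBcel235 annotation as all genes of the snoRNA class lying wholly within the body of a protein-coding gene on either strand. This gave 216 of the 346 annotated snoRNA genes, among 46890 annotated nuclear genes. Of these, 183 lay inside a host gene on the same strand, 1 of which also had a host on the opposite strand, and 33 lay only inside a host transcribed the other way. The 216 genes had 191 hosts, of which 24 held more than 1. They had a median length of 127 bp (54 to 325), 171 lay in introns, and 45 overlapped an exon of the host. The other 130 snoRNA genes lay outside protein-coding genes or reached beyond them.

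LIN-26 is a protein with zinc fingers that epidermal cells of the worm need to form and to keep their fate. Both samples were young adults at 64 hours, grown from L1 larvae that had been starved after bleaching, and they are 2 biological replicates of 1 group. The strain, RW12178, carries the CRISPR insertion st12178, which adds GFP to lin-26 together with an unc-119(+) marker between loxP sites, on an unc-119(tm4063) III background. Sonicated chromatin of 200 to 800 bp was precipitated with an antibody against GFP, although the antibody entry of the labels names lin-26. Whole animals were used, so the cells that carry a peak are not resolved, and an untagged strain is not analysed here. Each deposited peak has a summit and a signal value, both called against a control alignment. The list built from both replicates held 3187 nuclear peaks with a median signal value of 112.1, replicate 1 alone gave 1191 and replicate 2 alone 2083. All passed a threshold on the irreproducible discovery rate (IDR), which measures how well a peak's rank repeats, and the lowest listed score corresponds to an IDR of 0.01. The lists carry no read counts, so the depth is unknown.

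Small nucleolar RNAs guide the chemical modification of ribosomal RNA and other RNAs. Box C/D RNAs guide methylation of the ribose with the proteins fibrillarin, NOP56, NOP58 and SNU13, and box H/ACA RNAs guide pseudouridine formation with dyskerin, GAR1, NHP2 and NOP10. Many animal snoRNAs are cut out of the introns of their hosts, which often encode parts of the ribosome, and then need no promoter of their own. Some nematode snoRNA genes inside introns are transcribed separately. Many but not all genes read by RNA polymerase III, such as those for tRNAs, carry 2 short promoter elements. These are called the A box and the B box, and the factor TFIIIC binds them.

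The 8 sequences below show the start of the gene for members with an A box, with a B box or with neither. Each runs 5′ to 3′ on the snoRNA strand from 100 bases before the gene to 20 bases into it. It is from the RefSeq sequence of assembly WBcel235, and the gene's first base is base 101 of the run. Capitals mark a match to the A box (TGG or TAG, any 3 bases, AG, any base, GG) or to the B box (GGTTCGA, any 2 bases, CC, with at most 1 mismatch). T03F7.8, at chrV:11314158-11314277 (plus strand), and C04G6.12, at chrII:5105212-5105331 (minus strand), have an A box. C51F7.3, at chrV:12303608-12303727 (plus strand), C10C6.8, at chrIV:11474172-11474291 (minus strand), and F11A10.9, at chrIV:12086609-12086728 (plus strand), have a B box. ZK994.7, at chrV:8500479-8500598 (plus strand), is the member with the strongest peak and has neither box. R151.12, at chrIII:7208919-7209038 (plus strand), lies in the ribosomal protein gene rpl-6 and has a weaker peak. K07C5.11, at chrV:10352817-10352936 (minus strand), lies in nol-56 and has no peak.
T03F7.8: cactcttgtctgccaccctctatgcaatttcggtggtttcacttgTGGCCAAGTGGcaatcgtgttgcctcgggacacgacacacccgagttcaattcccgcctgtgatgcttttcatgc
C04G6.12: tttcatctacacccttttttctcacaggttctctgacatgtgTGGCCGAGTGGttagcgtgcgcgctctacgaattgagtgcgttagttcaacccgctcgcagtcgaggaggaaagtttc
C51F7.3: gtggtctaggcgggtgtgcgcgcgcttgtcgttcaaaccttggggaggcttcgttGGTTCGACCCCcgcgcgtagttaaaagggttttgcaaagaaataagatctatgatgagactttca
C10C6.8: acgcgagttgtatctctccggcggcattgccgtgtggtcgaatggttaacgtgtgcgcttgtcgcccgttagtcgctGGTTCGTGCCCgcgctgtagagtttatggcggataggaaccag
F11A10.9: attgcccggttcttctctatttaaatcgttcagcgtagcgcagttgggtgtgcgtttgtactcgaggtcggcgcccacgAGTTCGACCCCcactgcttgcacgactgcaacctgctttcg
ZK994.7: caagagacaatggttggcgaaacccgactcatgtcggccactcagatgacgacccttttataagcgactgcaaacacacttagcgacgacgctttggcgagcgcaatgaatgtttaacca
R151.12: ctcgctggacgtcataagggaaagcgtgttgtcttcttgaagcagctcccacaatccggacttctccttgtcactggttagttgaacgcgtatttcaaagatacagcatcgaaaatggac
K07C5.11: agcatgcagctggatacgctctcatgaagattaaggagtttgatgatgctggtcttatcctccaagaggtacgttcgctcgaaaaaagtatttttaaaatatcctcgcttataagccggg

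The inside snoRNA genes carried a LIN-26::GFP summit more often than annotated genes in general. A summit lay within 500 bp of 78 of the 216 genes, or 36.1% (95% Wilson interval 30.0 to 42.7), against a background of 8.8% of all nuclear genes. Replicate 1 alone gave 58 of the 216 genes, or 26.9% (21.4 to 33.1), against a background of 4.5%. Replicate 2 alone gave 68, or 31.5% (25.7 to 38.0), against 6.56%. The members thus stood well above the background in both replicates' own lists, in lists of unequal length. As a share of length, 2.79% of the bases in protein-coding gene bodies lay within 500 bp of a summit. Intervals cover counting error only, and neighbouring genes can share a summit. The 78 genes had 84 distinct summits within reach and 72 distinct strongest ones, 12 genes shared their strongest summit with another member, and 11 had more than 1 summit. None of the strongest summits had a tRNA or snRNA gene within 500 bp. The sequence of 215 members occurs once in the genome, and that of 1 member occurs more than once. The sources used here do not say how reads from similar copies were placed.

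The shares of inside and outside snoRNA genes did not differ detectably. A summit was found at 36.1% of the inside genes and at 34.6% of the outside ones (45 of 130), and the share over all snoRNA genes was 35.5%. The difference was 1.50 percentage points (95% Newcombe interval −8.98 to 11.6, two-sided Fisher exact p = 0.817, adjusted p = 0.817 over 3 comparisons). It was 3.02 points without replicate 1 and 3.77 points without replicate 2, and neither passed the test. Without the members in ribosomal protein genes, a removal chosen after the values were seen, the difference turned to −2.64 points. It was also slightly below 0 with the stronger peaks and by overlap. Ribosomal protein genes here are hosts whose names begin with rpl- or rps-, so any under other names are not counted among them. The strongest peak had a median signal value of 163.9 at inside genes with a summit and 249.9 at outside ones. Without the members in rpl- or rps- genes the inside median was 258.6. Genes for tRNAs, whose promoters hold both boxes, had a summit at 232 of 290 genes inside protein-coding genes (80.0%) and at 270 of 322 others (83.9%).

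**Figure D1:**
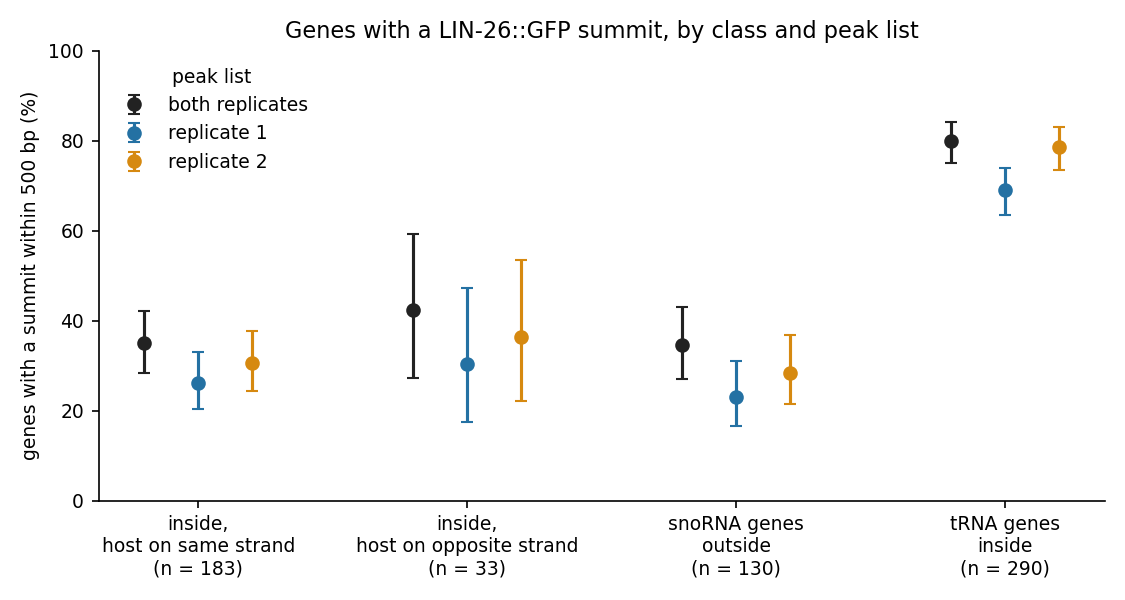
Share of genes with a LIN-26::GFP summit within 500 bp (percent, with 95% Wilson intervals) for snoRNA genes inside a host on the same strand (n = 183) or on the opposite strand only (n = 33), snoRNA genes outside (n = 130) and tRNA genes inside (n = 290), in the list of both replicates and in each replicate's own list. The 3 snoRNA classes overlap in each list, and the tRNA genes lie above them at 80.0%, 69.0% and 78.6%.

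Members on either strand of their host had peaks. A summit lay near 64 of 183 same-strand members (35.0%) and near 14 of 33 opposite-strand members (42.4%). The difference of −7.45 points (−25.4 to 9.34) did not pass the two-sided Fisher exact test (p = 0.435, adjusted p = 0.797), and its interval is wide. Without members in ribosomal protein genes it was −12.5 points, with 49 of 164 against 14 of 33 (two-sided Fisher exact test, adjusted p = 0.500). The removed members were all same-strand, and the 15 of them with a summit had a median signal value of 131. Of the 14 opposite-strand members with a summit, 12 had the strongest one within 100 bp of the snoRNA 5′ end, and 8 had a summit in both replicates' own lists. The signal values of these 14 ran between 101 and 863, with a median of 312, and those of the 64 same-strand members between 49.5 and 1060, with a median of 163. These members are transcribed against the direction of their host, and 3 of the 5 opposite-strand members with an A or B box had a summit.

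Peaks at the members repeated between the replicates. Both own lists held a summit for 48 members, replicate 1 alone for 10, replicate 2 alone for 20 and neither for 138. Of the 78 members with a summit in the list of both replicates, 48 had one in each own list, 15 in that of replicate 2 only, 8 in that of replicate 1 only and 7 in neither. The 48 are 61.5% of the members with a summit, against a background of 44.8% of the 4126 nuclear genes with one, and the 7 in neither are 8.97%, against 25.6%. These shares were not tested, and genes that share a peak are counted each. Strength went with repetition, as the median signal value was 307 at the 48, 123 at the 23 seen in 1 own list and 103 at the 7 seen in neither. The list of both replicates is built from the same alignments as the own lists, so this order is partly built in. Across the 48 members, which rest on 44 distinct peaks in each list, the Spearman correlation of the replicates' signal values was 0.911. This is a description across genes, which share the same libraries and both thresholds. The strongest summits of the replicates lay a median of 26.5 bp apart, 38 of 48 within 50 bp and 3 over 200 bp apart. Another 7 members had a summit in 1 own list and none in the list of both replicates.

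**Figure D2:**
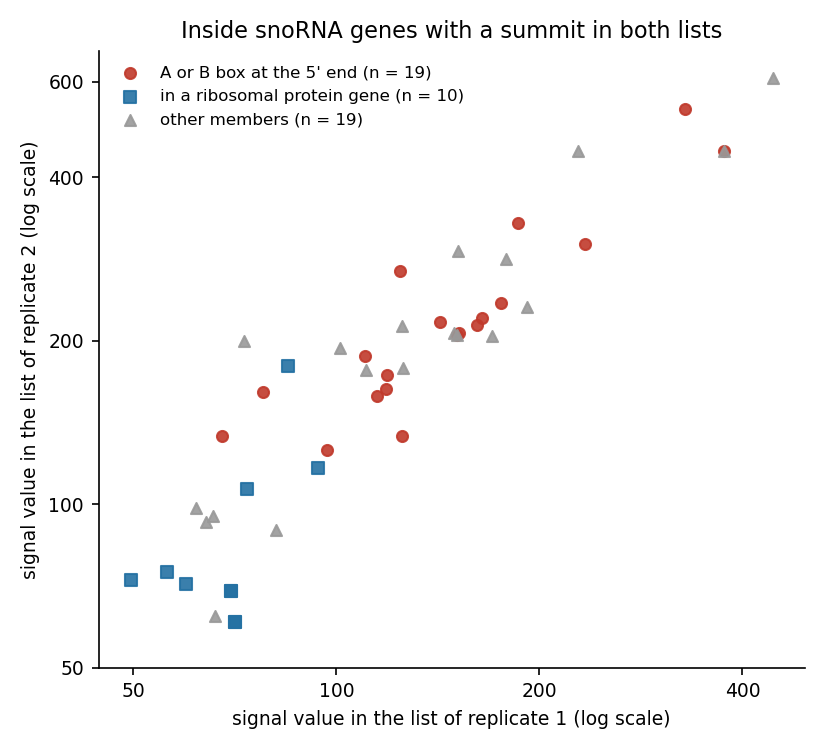
Signal value of the strongest peak within 500 bp in the own list of replicate 1 (horizontal) and of replicate 2 (vertical), both on log scales, for the 48 inside snoRNA genes with a summit in both lists. Points mark members with an A or B box (n = 19), in an rpl- or rps- gene (n = 10) and all others (n = 19). The members in rpl- or rps- genes lie in the lower part, with values up to 93.8 in replicate 1 and 180 in replicate 2.

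The strongest peaks at members ranked among the strongest of the whole map. The strongest peak of 13 members was among the top 100 nuclear peaks, of 30 among the top 300 and of 35 among the top 600, and 62 of 78 were at or above the list median. These are counts of members, which can share a peak, in a list of 3187 nuclear peaks. Outside snoRNA genes with a summit had a higher median signal value, 249.9 against 163.9. The strongest peak at a member stood at ZK994.7 (chrV:8500579-8500645, plus strand), in an intron of pxn-1, which encodes a peroxidasin. Its signal value was 1060 in the list of both replicates, 443 in that of replicate 1 and 610 in that of replicate 2, and its summit lay at −8 bp, just before the 5′ end. T03F7.8 (chrV:11314258-11314332) lies opposite to its host cutl-18, a cuticlin-like gene, and had values of 863, 329 and 536 in the same order of lists. Its summits stood at −43, −44 and −39 bp, so all 3 lists placed the peak just upstream of the gene. C51F7.3 and C51F7.4 in frm-7, which encodes a FERM domain protein, share 1 peak with values of 825, 375 and 448. The summit lies 70 bp before C51F7.3 and 39 bp after the start of C51F7.4.

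The 8 peaks next in strength had signal values between 401 and 678. B0334.12, opposite to the potassium channel gene twk-5, had signal values of 678 in the list of both replicates, 229 in replicate 1 and 448 in replicate 2, with the summit 124 bp after the 5′ end of a gene of 70 bp. C10C6.8 in catp-8, a cation-transporting ATPase gene, had 544, 234 and 301, and its summit lay at −60 bp. C27H6.5 in unc-41, which acts in synaptic vesicle recycling, had 509, 186 and 330. T19C4.11 in the G protein alpha subunit gene gpa-1 had 478, 151 and 292, and F38E11.14 in the cyclic nucleotide-gated channel gene cng-3 had 463, 179 and 283. F11A10.9 in rbm-34, which encodes an RNA-binding protein, had 421, 175 and 235, with its summit 17 bp before the 5′ end. F55A11.10 in F55A11.6 had 411, 124 and 269, and D1046.6 in cfim-2, a subunit gene of the 3′ end cleavage factor, had 401, 192 and 231. All 3 lists held each of these peaks, and the value of replicate 2 exceeded that of replicate 1 at every one. Signal values are not scaled between lists, so this order is not a difference between the animals.

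The other named members of the 20 strongest spanned 346 to 379 in signal value. They were T04A8.17 in ppat-1, F19H8.6 in mltn-9, T08B2.13 in the phenylalanyl-tRNA synthetase gene fars-1, C04G6.12 in the MAP kinase gene mpk-2, C05D2.15 in madf-11, ZK484.9 in haf-9, and C27H5.9 and C27H5.10 in pdl-1. The pdl-1 pair share 1 peak, whose summit lies 27 bp before C27H5.9 and 387 bp after the start of C27H5.10. T04A8.17, C04G6.12, ZK484.9 and the pdl-1 pair lie opposite to their hosts. Of the 20, 19 lay in introns, 20 had a summit in both own lists, 17 had the strongest summit within 100 bp of the 5′ end and 11 had an A or B box.

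Summits gathered at the 5′ end of the snoRNA. Measured along the snoRNA strand, the nearest summit had a median position of −18 bp, with quartiles at −45.75 and 166.75 bp. The side is not settled, as the median was −11.5 bp in replicate 2 alone, 9 bp in replicate 1 alone, 10.5 bp in the conservative list and 2.5 bp within 1000 bp. It lay within 100 bp of the 5′ end at 46 of 78 members (59.0%), and at 32 of 45 outside genes (71.1%). Members wholly in introns had a summit in 69 of 171 cases (40.4%, 33.3 to 47.8), and those overlapping a host exon in 9 of 45 (95% Wilson interval 10.9 to 33.8%), a difference that was not tested. The strongest summit lay upstream of the gene at 39 members, within it at 16 and after its 3′ end at 23. It was nearer to the snoRNA 5′ end than to any annotated 5′ end of a protein-coding transcript at 63 of 78. A protein-coding 5′ end lay within 200 bp of the strongest summit at 13 members and within 1000 bp at 43. Only summits within 500 bp of the snoRNA gene were counted, with no such limit for protein-coding 5′ ends, so the count of 63 is partly built in. Members over 1000 bp from any protein-coding 5′ end had a summit at 33 of 110 (30.0%), and members within that distance at 45 of 106 (42.5%).

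**Figure D3:**
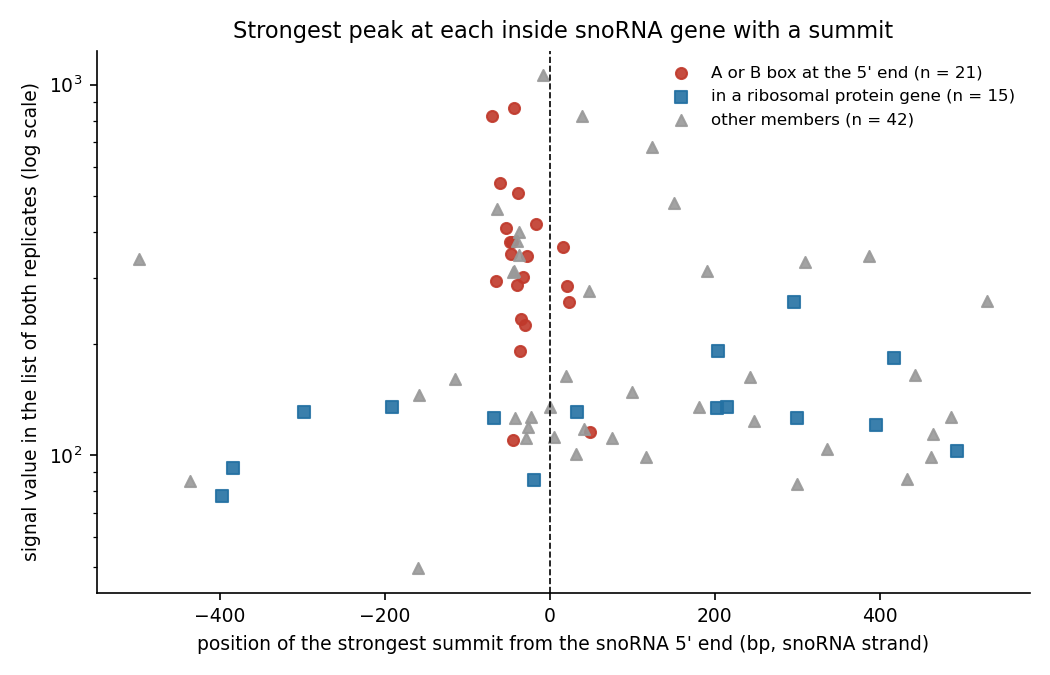
Position of the strongest summit from the snoRNA 5′ end (horizontal, bp along the snoRNA strand, dashed line at the 5′ end) against its signal value in the list of both replicates (vertical, log scale) for the 78 inside snoRNA genes with a summit. The 21 members with an A or B box lie between −70 and 49 bp. The 15 in rpl- or rps- genes spread between −397 and 493 bp at values of 77.4 to 259.

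Most of the members with a polymerase III type promoter element just upstream had a peak. The boxes were searched on the snoRNA strand from 100 bases before to 20 bases after the 5′ end, a window chosen after the values were seen. A B box was present at 14 of the 78 members with a summit (17.9%) and at 3 of the 138 without one (2.17%), against a background of 0.36% of the same windows at 19973 protein-coding genes. An A box was present at 10 of 78 (12.8%) and at 4 of 138 (2.90%), against a background of 0.345%. Outside genes gave 13 of 45 with a summit and 4 of 85 without for the B box, and 6 of 45 and 2 of 85 for the A box. Read the other way, 14 of 17 members with a B box had a summit (82.4%, 59.0 to 93.8), and 64 of 199 without one (32.2%, 26.1 to 38.9). For the A box these shares were 10 of 14 (71.4%) and 68 of 202 (33.7%). The replicates alone gave 13 and 14 of the 17 members with a B box. These shares were not tested, and a match is no proof of a working element.

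The A boxes lay farther upstream than the B boxes, as in a tRNA gene, and the matches found began before the snoRNA. The window searched lay mostly before the gene and reached only a short way into it, so this placement is partly built in. Boxes deeper inside the gene were not searched for, so the positions cannot be set against those inside tRNA genes. The positions come mostly from different members, as only 4 had both boxes, 3 of them with a summit. The first base of the B box had a median position of −18 bp (−45 to −6) over the 17 members, and that of the A box −59 bp (−75 to −53) over 14. At the 14 members with a B box and a summit, the strongest summit lay within 100 bp of the box in 14, with a median position of −45.5 bp. Their median signal value was 326, against 140 at the 64 members with a summit and no B box. In the sequences above, the A boxes of T03F7.8 and C04G6.12 begin at −55 and −58 bp, and the B boxes of C51F7.3, C10C6.8 and F11A10.9 at −45, −23 and −21 bp. Only the B box of C51F7.3 among these has no mismatch.

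**Figure D4:**
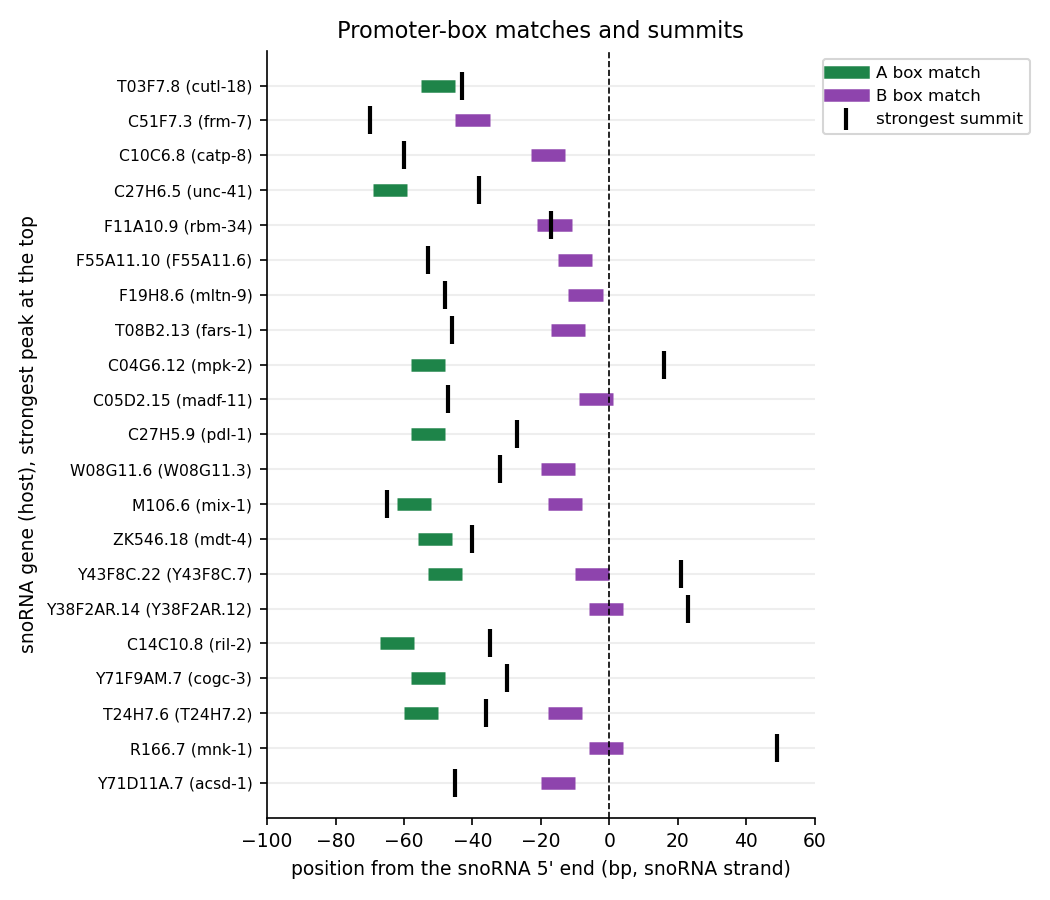
Positions of A box matches (green bars), B box matches (purple bars) and the strongest summit in the list of both replicates (black ticks), in bp from the snoRNA 5′ end along its strand, for the 21 inside snoRNA genes that have a summit and at least 1 box, ordered by signal value with the strongest at the top. A boxes begin near −59 bp and B boxes near −18 bp, and every summit lies between −70 and 49 bp.

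Counts with either box showed the same split, and 6 members went against it. A summit lay at 21 of 27 members with an A or B box (77.8%, 59.2 to 89.4) and at 57 of 189 with neither (30.2%, 24.1 to 37.0). Both own lists held a summit for 19 of the 27. The 6 without a summit in the list of both replicates lie in rpn-8, trpp-8, pcmd-1, lagr-1, mrps-2 and D1054.3, hosts named after their values were seen. The member in rpn-8, R12E2.17, had a summit in the own list of replicate 2 with a signal value of 55.3, and that in lagr-1, Y6B3B.15, had one in the own list of replicate 1 with 93.4. Looser motifs, picked after several forms had been counted, moved the shares up in all groups. A B box of GTTCGA, any 2 bases and C with 1 mismatch was present at 33 of 78 members with a summit (42.3%), at 20 of 138 without (14.5%) and at 8.30% of protein-coding genes. The looser A box was present at 30 of 78 (38.5%), 15 of 138 (10.9%) and 4.73%. Both looser boxes stood together at 28 members, of which 25 had a summit, against 40 of 146 members with neither. At outside genes, each looser box was present at 16 of 45 with a summit (35.6%) and 15 of 85 without (17.6%). These shares were not tested.

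Around the summits themselves the boxes were about as common as at all peaks of the map. They were more common than at peaks with no tRNA, snRNA or snoRNA gene nearby. Searched on either strand within 100 bp, a B box lay at 17 of the 72 distinct strongest summits (23.6%) and an A box at 15 (20.8%). The background over all 3187 nuclear peaks, many of which lie at tRNA genes, was 18.4% for the B box and 15.2% for the A box. At the 2544 summits with no tRNA, snRNA or snoRNA gene within 500 bp, the shares were 6.60% and 7.43%. The scan at summits was chosen after the values were seen and was not tested.

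Other sequence features of the members differed between those with and without a summit. The 100 bases before the gene had a median GC content of 51% at members with a summit and 38% at those without, while the genes themselves had 42.1% and 38.9%. A run of TTTT, the signal at which RNA polymerase III ends transcription, lay within 50 bases after the gene at 156 members. Of these, 65 had a summit (41.7%), against 13 of the 60 without it (21.7%). The letters TATA in the 100 bases before went the other way, with a summit at 15 of 53 members that had them (28.3%) and 63 of 163 that lacked them (38.7%). The part of GC content in the split by boxes was not tested, nor were these differences.

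Members with the letters of a box H/ACA RNA had a summit more often than those with no class. By their ends, 63 members read as box H/ACA, 11 as box C/D and 142 as neither. A summit lay at 33 of the 63 (52.4%, 40.3 to 64.2) and at 40 of the 142 (28.2%, 21.4 to 36.1). Of the H/ACA members, 13 of 15 in ribosomal protein genes had one, and 20 of 48 in other genes (41.7%). All 10 H/ACA members with an A or B box had a summit, and 23 of 53 without a box (43.4%). These splits of the H/ACA members were not tested. The box C/D members had a summit in 5 of 11 cases (45.5%), and all others in 73 of 205 (35.6%). That difference of 9.84 points (−15.3 to 37.1) did not pass the two-sided Fisher exact test (p = 0.531, adjusted p = 0.797). It was 24.3 points without replicate 1, with 6 of 11 against 62 of 205 (two-sided Fisher exact test, adjusted p = 0.313), 10.02 points without replicate 2 and 1.24 points in the conservative list. The strict letters leave few box C/D members, so the comparison has little reach.

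Members inside rpl- or rps- ribosomal protein genes had frequent but weaker peaks, placed differently. This split was made after the values were seen, by host names that begin with rpl- or rps-. Hosts coding for ribosomal proteins under other names would fall among the other hosts. A summit lay near 15 of 19 members in rpl- or rps- genes (78.9%, 56.7 to 91.5) and near 63 of 197 in other hosts (32.0%, 25.9 to 38.8). The 19 have 13 hosts, and the 15 have 12 distinct strongest summits. The replicates alone gave 13 of 19 each. The median signal value was 131 at those 15 and 259 at the 63 in other hosts. No member in these rpl- or rps- genes had an A or B box at its 5′ end, and no box lay within 100 bp of any of their 12 summits. Their summits lay a median of 296 bp from the snoRNA 5′ end and 248 bp from a protein-coding 5′ end, and 7 of 15 were nearer to the protein-coding one. In other hosts the medians were 48 bp and 1097 bp, and 55 of 63 summits were nearer to the snoRNA 5′ end. All these summits were picked within 500 bp of a snoRNA gene, so nearness to its 5′ end is partly built in. These differences were not tested.

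**Figure D5:**
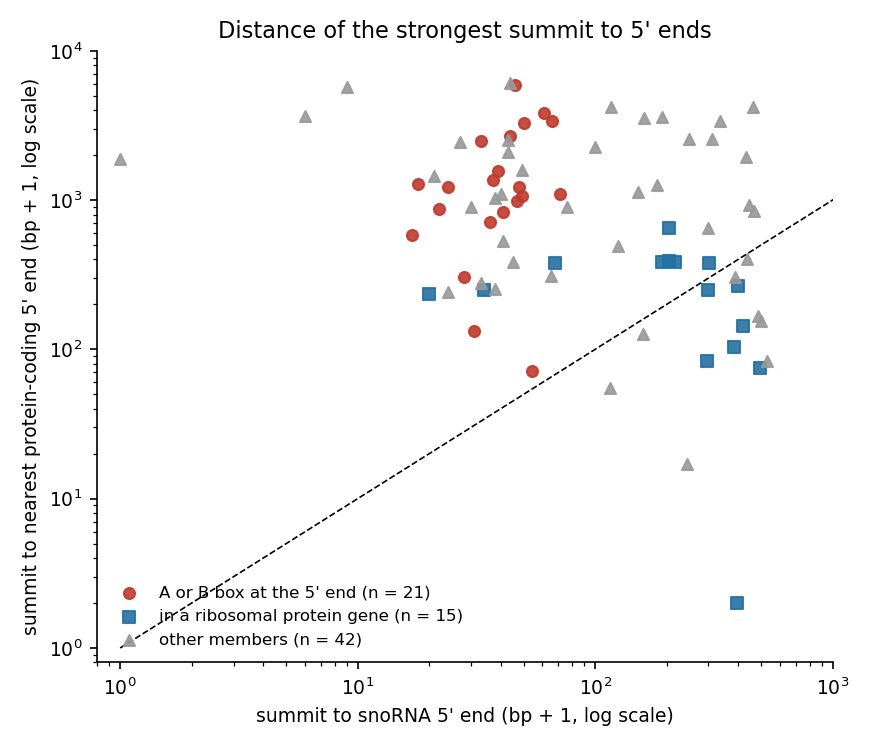
Distance of the strongest summit to the snoRNA 5′ end (horizontal) and to the nearest annotated 5′ end of a protein-coding transcript (vertical), in bp plus 1 on log scales, for the 78 inside snoRNA genes with a summit, with a dashed line where both are equal. All 21 members with an A or B box lie above the line, nearer to the snoRNA 5′ end, and 7 of the 15 in rpl- or rps- genes lie below it. Summits were picked within 500 bp of the snoRNA gene, with no such limit on the vertical distance.

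The values in single ribosomal protein genes show the spread. Y43B11AR.7 in rps-4, named after its value was seen, had the highest signal value among members in rpl- or rps- genes, 259. It had 84.8 in replicate 1 and 180 in replicate 2, and its summit lay 82 bp from a protein-coding 5′ end. R151.11 and R151.12 in rpl-6 share a peak with values of 134.6 in the list of both replicates and 69.1 in replicate 1, and none in replicate 2. R151.13 in rpl-6 had a peak of 103 in neither own list. F53G12.12 in rpl-7 had 85.8, and 63.1 in replicate 2 only, with the summit 19 bp before the snoRNA. The host promoter and the snoRNA lie within the same short genes, and which of them the peaks belong to was not tested.

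The 5 weakest peaks at members, among them that of F53G12.12, were in at most 1 own list. F41E6.18 in smk-1 had a signal value of 49.5, C04A2.16 in egl-27, a gene of a chromatin complex, 85.0 and F48A11.7 in ubxn-3 83.6, and none of these peaks was in either own list. D1007.20 in rpl-24.1 had 77.4, and 78.0 in replicate 2 only. At the edge of the window, the summit farthest from its gene was that of C06A1.9 in cdc-48.1, at 497 bp with a signal value of 338, and the first one beyond it was at Y43F4B.11 in klp-19, at 580 bp with 89.9.

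Peaks were unevenly spread over the hosts with the most members. The gene nol-56, which encodes a core protein of box C/D particles, holds 4 members, K07C5.10, K07C5.11, K07C5.12 and K07C5.18, and 0 had a summit. The topoisomerase II gene top-2 holds 3, K12D12.6, K12D12.7 and K12D12.8, also with 0, while 3 of 3 in rpl-6 had one. Among the many hosts with 2 members, F58D5.5 and Y37E3.8, taken first by name, had 1 each with a summit, F58D5.12 with a signal value of 123 and Y37E3.22 with 261. Of the 138 members without a summit, 25 had a peak in the ranked list of both replicates with an IDR under 0.05, 7 in that of replicate 1 and 17 in that of replicate 2. These are 18.1%, 5.07% and 12.3% of the 138, against backgrounds of 6.1%, 0.898% and 2.23% of the 42764 nuclear genes without a summit. The lowest of these in the list of both replicates was 0.0111, at W06A7.12 in ret-1, a member named after its value was seen. The 25 in the list of both replicates were below its threshold. Of the 138 members, 2 had a summit in the own thresholded list of replicate 1 and 5 in that of replicate 2. The shares were not tested.

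The protein genes of snoRNA particles carried no promoter peak. None of fib-1, nol-56, nol-58, snu-13, dkc-1, garr-1, Y48A6B.3 and nola-3 had a summit between 1000 bp upstream and 200 bp downstream of an annotated 5′ end, that is 0 of 8, against a background of 6.65% of protein-coding genes. They had none in either replicate's own list. These genes encode fibrillarin, NOP56, NOP58, SNU13, dyskerin, GAR1, NHP2 and NOP10, in that order, and 8 genes are too few to show a share below the background.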

How the data were processed

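The starting point was 7 peak lists on assembly ce11 that the authors deposited, 4 of them past a threshold on the IDR and 3 ranked without one, made against a control alignment, per the text deposited with the samples. The sources used here name no peak caller, aligner or threshold. Signal values, as deposited, are not scaled between lists, and the deposited score is a whole number whose lowest value is 830. The deposited −log10 of the IDR in the ranked lists served for members without a summit. Peaks were compared with Ensembl release 115 genes and the RefSeq WBcel235 sequence, the assembly ce11 names. Every peak lay within its chromosomes. Coordinates count from 1. The strict list called conservative was an alternative.

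Shares were set beside all genes of the 6 chromosomes. Only 3 differences were tested, by two-sided Fisher exact tests with Benjamini-Hochberg adjustment at 0.05. Genes that share a summit are not independent, and with 1 group nothing was tested between conditions. The search and the Fisher test were tested on simulated data. Box C/D members have TGATGA or GTGATG in the first 20 bases and CTGA in the last 20, and box H/ACA members have ACA starting 6 to 3 bases before the 3′ end. The looser A box was TGGC, any 2 bases, AGTGG with 2 mismatches. The members, lists and rules were chosen with earlier results of these data known, and the looser boxes after several forms had been counted. Named members were the 20 strongest, up to 8 on the opposite strand, the 5 weakest, up to 20 in both own lists, and those of the 5 hosts with most. Software was matplotlib 3.10.9, scipy 1.17.1, pandas 2.3.3, numpy 2.4.6 and Python 3.11.15.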

Additional observations from a re-analysis of the deposited data

How the results depend on the processing

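No setting tried brought any of the 3 tested differences past the threshold. The share of members with a summit, 36.1%, ran between 26.9% and 31.5% in a single replicate's own list. It was 28.7% with only peaks at or above the median signal value, 29.6% within 200 bp, 46.3% within 1000 bp and 27.3% where the peak had to overlap the gene. The difference between inside and outside genes, 1.50 points, turned to −0.527 with the stronger peaks, −0.377 by overlap and −2.64 without members in ribosomal protein genes. In single replicates it was between 3.02 and 3.77. The box C/D difference, 9.84 points, was between 10.02 and 24.3 in single replicates, and over all settings its lowest value was 1.24, in the conservative list. The difference between same-strand and opposite-strand members, −7.45 points, turned to 4.57 within 1000 bp. The median signal value, 163.9, was between 106 and 130 in a single replicate's own list, whose scale differs, 191 within 200 bp and 259 without members in ribosomal protein genes. The median summit position, −18 bp, ran between −11.5 and 9 in single replicates, and was 10.5 in the conservative list and 2.5 within 1000 bp. The cause was not tested. The share was 40.4% for members wholly in introns, against 9 of 45 for those overlapping a host exon, and 37.0% with neighbouring genes counted once. No paired analysis was possible because both replicates belong to 1 group. The lists give no read depth, so a missing peak cannot be told apart from too few reads. Setting by setting, the conservative list, the removal of genes near tRNA or snRNA genes and the removal of genes near protein-coding 5′ ends turned none of the 3 differences.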

Other observations

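Members with a summit were spread over 5 of the 6 chromosomes. The X chromosome held 10 members and 0 with a summit in any list, for which the 95% Wilson interval reaches 27.8%. The shares elsewhere were 12 of 44 on I, 17 of 43 on II, 19 of 44 on III, 15 of 36 on IV and 15 of 39 on V. This split was made after the values were seen and was not tested.

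The gene lir-1, whose name marks it as related to lin-26, hosts the member F18A1.11 in an intron. Its peak had a signal value of 104 in the list of both replicates, was in neither own list, and its summit lay 336 bp after the snoRNA 5′ end. This member was named after its value was seen.

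Among members with neither box and outside rpl- or rps- genes, 42 of 170 had a summit (24.7%), with a median signal value of 146. ZK994.7, B0334.12 and T19C4.11, which rank high in the whole map, are among them.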
